A study of Mus musculus with 10 samples.

Results

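The genes described are 36 nuclear genes for subunits of respiratory complex I, taken by name from a fixed list, and 33 of them were measured. A gene counted as measured when a probe set of the array carried its symbol and no other, and the brightest such probe set was used. The whole array gave 22180 genes by the same rule. Ndufb2, Ndufb4 and Ndufs6 have only probe sets shared with other genes and are not reported.

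The muscle came from male NMRI mice, an outbred stock. The 5 control mice ate a basal diet of natural ingredients with under 5 mg carnitine per kg, and the 5 carnitine mice ate that diet with 1000 mg L-carnitine per kg added. The basal diet, with added methionine and choline, was the same for both. Mice were 3 weeks old at the outset and were kept 5 to a cage, and the cages of the array mice are not given in the labels. Gastrocnemius, a calf muscle, gave the RNA, with 1 array a mouse. The feeding study as a whole held 60 mice and took muscle at 9, 15 and 18 months, and the labels do not assign the array mice to these ages, so an age difference between groups cannot be told apart from diet. The study asked how long-term L-carnitine feeding affects the muscle transcriptome.

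Complex I (NADH:ubiquinone oxidoreductase) is the entry point of electrons from NADH into the respiratory chain of mitochondria. An arm in the matrix oxidises NADH (the N module) and passes electrons along iron-sulphur clusters to ubiquinone (the Q module), and an arm in the inner membrane pumps protons (the ND1, ND2, ND4 and ND5 modules, each named after a subunit that mitochondrial DNA encodes). Nuclear genes encode the subunits that mitochondrial DNA does not encode, and these are made in the cytosol, imported and joined module by module. Muscle fibres rich in mitochondria, slow fibres among them, hold much of the complex. Carnitine is needed to bring long-chain fatty acids into mitochondria, where their oxidation supplies NADH to complex I.

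The members moved together over mice, and the stretches before the start sites of 3 of them are printed, from the RefSeq promoter table (GRCm38.p6). They were chosen because each holds the motif of NRF1, a regulator of mitochondrial genes, on either strand or on both. A further reason was that Ndufa11 followed the other members most closely while Ndufs5 did not follow them. Among these 3 stretches the NRF1 motif is palindromic only in Ndufa11. Capitals mark this motif and, in Ndufa11, the letters TGACGTCA, bound by CREB proteins. The Ndufa11 stretch is chr17:56717602-56717761 on the plus strand, Ndufa8 is chr2:36049339-36049498 on the minus strand and Ndufs5 is chr4:123718200-123718359 on the minus strand, and each is written 5′ to 3′ towards the gene.
Ndufa11: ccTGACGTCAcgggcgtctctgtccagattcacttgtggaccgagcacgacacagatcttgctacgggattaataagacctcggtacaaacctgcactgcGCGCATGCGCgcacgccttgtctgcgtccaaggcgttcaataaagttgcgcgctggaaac
Ndufa8: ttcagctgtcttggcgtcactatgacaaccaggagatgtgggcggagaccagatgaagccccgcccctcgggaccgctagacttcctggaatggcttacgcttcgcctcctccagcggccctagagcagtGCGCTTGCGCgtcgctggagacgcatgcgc
Ndufs5: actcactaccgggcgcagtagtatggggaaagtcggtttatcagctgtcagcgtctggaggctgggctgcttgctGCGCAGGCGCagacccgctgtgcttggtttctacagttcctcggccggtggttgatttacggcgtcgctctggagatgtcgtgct

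Promoter sequences matched 33 of the 36 listed genes, with 35 start sites, and Ndufa2, Ndufb9 and Ndufs1 had no entry. In the 250 bases before the start, the NRF1 motif was found at 7 of these 35 start sites (20.0%) and at 3.74% of 32851 start sites of all genes. The 7 sites belong to 6 of the 33 genes: Ndufa11, Ndufa5, Ndufa8, Ndufb4, Ndufs5 and Ndufs6. Both start sites of Ndufa5 count the same motif. The letters TGACGTCA were found at 3 member sites (8.57%, against 1.55% of all), those of Ndufa10, Ndufa11 and Ndufb2. ACCGGAAG, the core of GABP binding, was found at 1 site, that of Ndufb6 (2.86%, against 1.72%), GGGCGG of SP1 at 14 (40.0%, against 32.7%), CCAAT at 10 (28.6%, against 33.8%) and TATAAA at 5 (14.3%, against 12.4%). The TATAAA sites belong to 4 genes, since both start sites of Ndufa7 count the same letters. AAGATGGC of YY1 was in none of the 35 (1.56% of all) and TCAAGGTCA of the oestrogen-related receptors in none (0.387% of all). Both strands were searched for every motif, and these letters describe the window only.

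Values below are RMA log2 levels, and differences are carnitine minus control, so a difference of 1 would be a doubling. Acta1, the actin of skeletal muscle, lay between 13.72 and 13.88 on all 10 arrays, and the tissue's other defining genes were high on every array. Control replicate 5 stood apart as an array, with an interquartile range of 2.20 over all probe sets against 2.39 to 2.59 on the others. Of the 33 members, 32 had a mean above the median gene level of 6.14, and Ndufs5, at 5.89 in control and 5.95 in carnitine, lay below it.

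No complex I gene was called different between the diets. In limma with Benjamini-Hochberg adjustment over all genes, 0 of 33 members passed an adjusted p of 0.05 (smallest 0.72), as for all genes (0%), and 0 of 33 had an unadjusted p below 0.05, against 6.97% of all genes. In 0 of 33 members did the groups not overlap, against 1.11% of all genes. The differences were small and nearly all of 1 sign: 32 members had a positive and 1 a negative difference, with a median of 0.11, a 1.08-fold level. Of the 11089 genes above the median level, 67.8% had a positive difference, with a median of 0.06. After cyclic loess, which aligns the arrays again along the range of signal, 19 of 33 members were positive and the median was 0.02. The members' signs are no independent observations, because their levels covaried over mice.

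**Figure D1:**
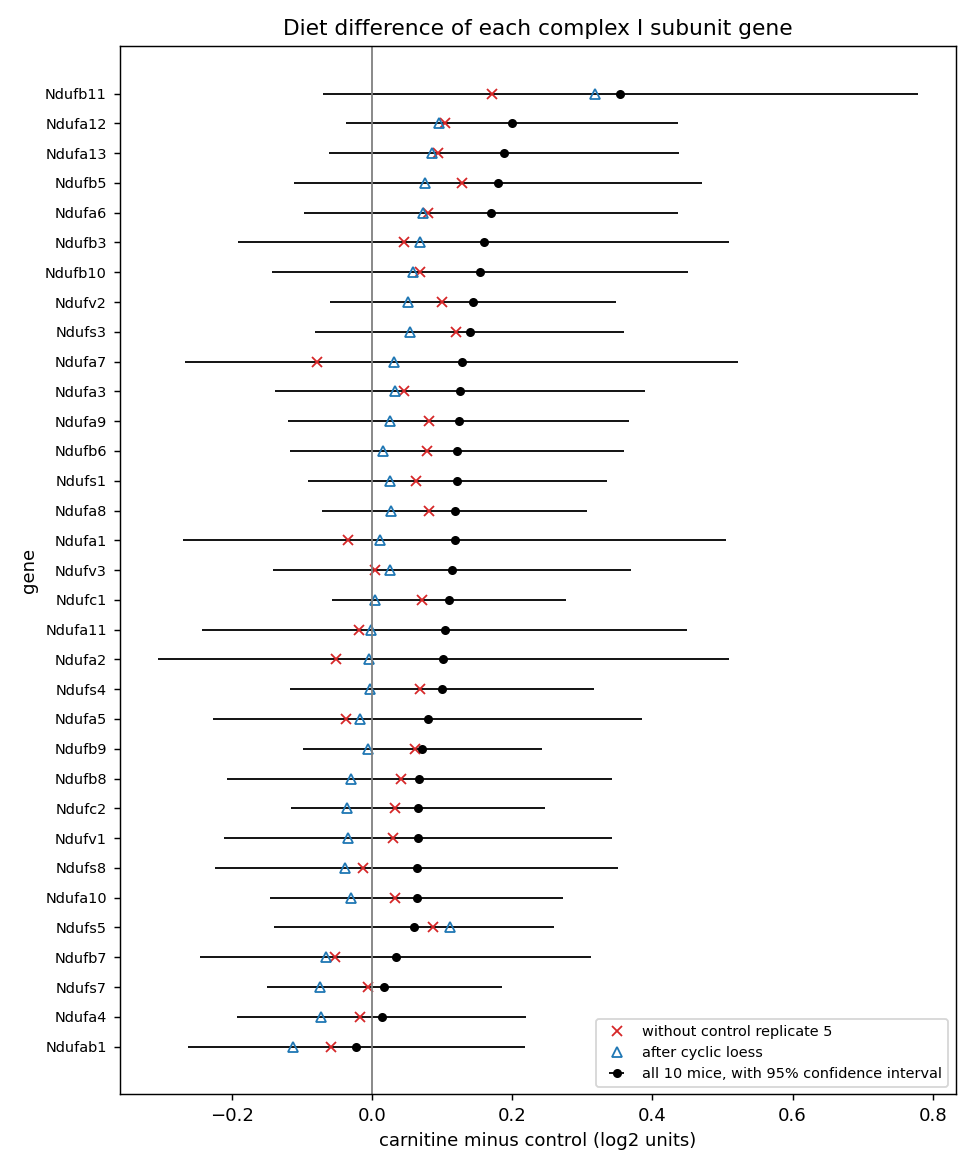
Difference in log2 level between carnitine and control muscle (horizontal axis) for each of the 33 measured complex I genes, with the limma 95% confidence interval over 10 mice (black), without control replicate 5 (red crosses) and after cyclic loess (blue triangles). All 33 intervals contain 0, and 23 crosses and 19 triangles lie above 0.

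The confidence intervals bound what these 10 arrays could have missed. Their median half-width was 0.25 log2 units, and 32 of 33 upper bounds lay below a 1.5-fold increase. The exception was Ndufb11, whose upper bound was 1.72-fold. The lowest lower bound, that of Ndufa2, was 0.81-fold.

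The mean over the 33 members in each mouse, called the complex I level here, was 9.91, 9.60, 9.61, 9.74 and 9.36 in control replicates 1 to 5, and 9.79, 9.73, 9.87, 9.90 and 9.49 in carnitine replicates 1 to 5. Both groups held a high and a low mouse: control 1 was the highest of all and control 5 the lowest, while carnitine 5 lay below 4 of the controls. The group means were 9.65 ± 0.20 and 9.76 ± 0.16 (SD, n = 5 per group), a difference of 0.11, or 8.0%. The highest mouse exceeded the lowest by 0.55, or 1.47-fold, so the range over mice was several times the difference between the diets. Without control replicate 5 the difference was 0.04 with 23 of 33 members positive, and without carnitine replicate 5 it was 0.18 with 33 of 33 positive. In that last case 7 members (Ndufa3, Ndufa8, Ndufa9, Ndufa13, Ndufb5, Ndufb6 and Ndufs3) had an unadjusted p below 0.05, against 5.83% of all genes, and none passed after adjustment in limma (smallest adjusted p 0.81).

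**Figure D2:**
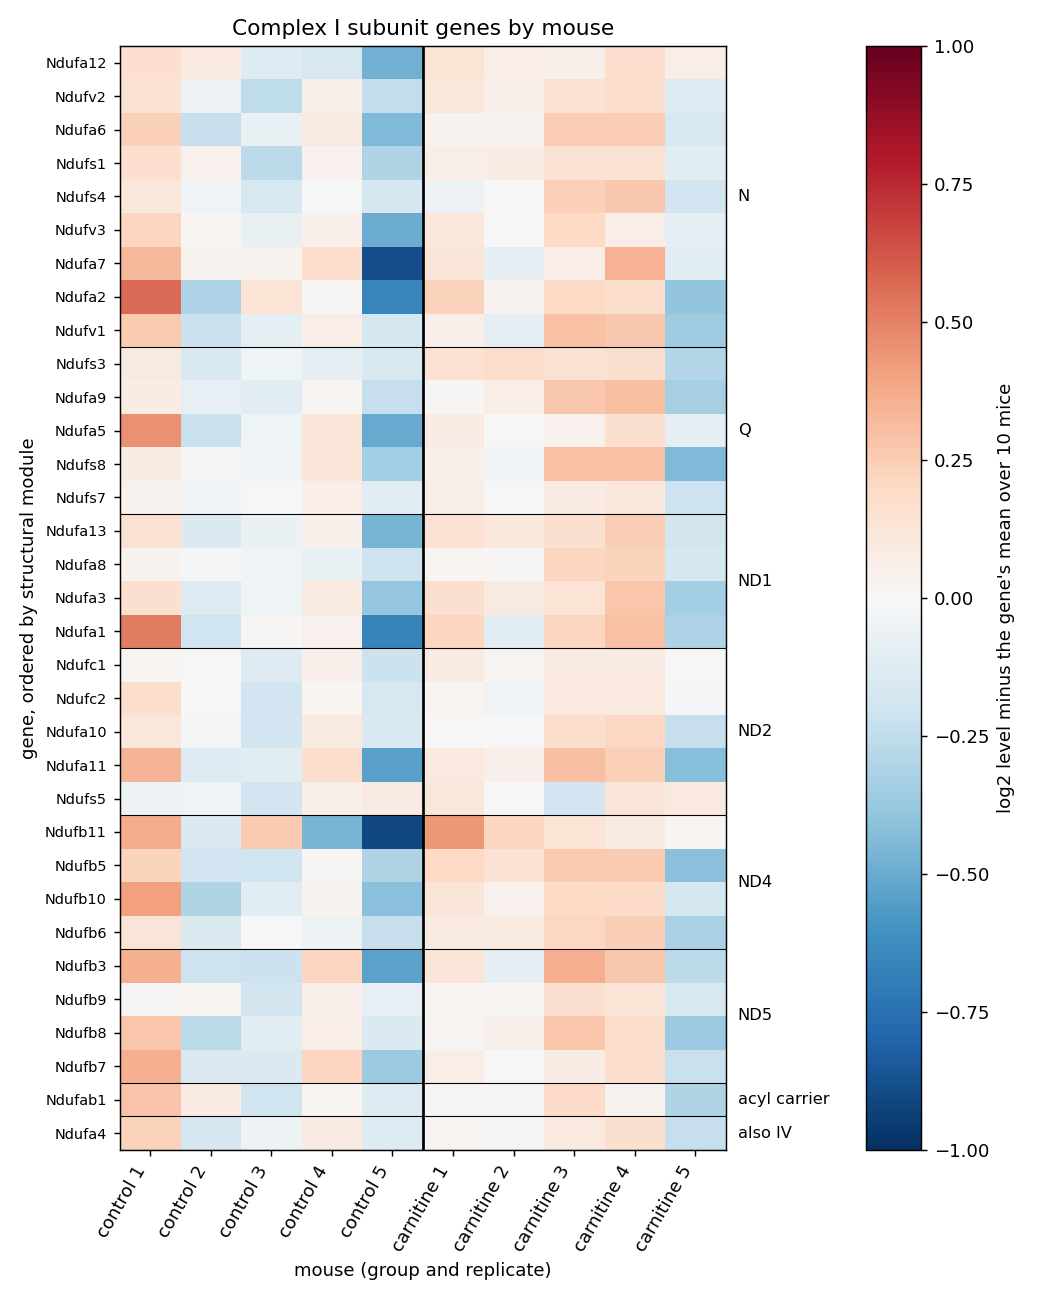
Level of each measured complex I gene (vertical axis, ordered by structural module) in each mouse (horizontal axis), as log2 level minus that gene's mean over the 10 mice. Control 5 and carnitine 5 are low and control 1, carnitine 3 and carnitine 4 are high across all modules, with Ndufs5 as the clearest exception.

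In the N module 9 genes were measured, all with a positive difference (median 0.12). Ndufa12, an accessory subunit at the junction with the Q module, had the smallest p of all members. Its control values were 9.17, 9.10, 8.87, 8.84 and 8.52, and its carnitine values 9.14, 9.07, 9.05, 9.17 and 9.07. The carnitine mice were tightly grouped above the lower 3 controls and level with the upper 2. The difference was 0.20 (SE 0.11, adjusted p = 0.72 in limma), and 0.11 without control 5. The dimmer second probe set of Ndufa12 gave a difference of 0.23.

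Ndufv2 holds an iron-sulphur cluster beside the NADH site. It read 11.54, 11.34, 11.14, 11.45 and 11.15 in controls and 11.50, 11.45, 11.55, 11.57 and 11.27 in carnitine mice (difference 0.14, SE 0.095). Controls 1 and 4 lay among the upper carnitine mice, and carnitine 5 lay below 3 of the controls. Ndufa6, a small subunit of the LYR family, which binds the acyl carrier protein, read 11.12, 10.65, 10.81, 10.97 and 10.44 in controls and 10.92, 10.92, 11.14, 11.14 and 10.72 in carnitine mice (difference 0.17, SE 0.12). Control 5 was the lowest mouse for Ndufa6, and control 3 for Ndufv2.

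The other N module genes differed by 0.07 to 0.13. They are Ndufs1, the largest subunit with several iron-sulphur clusters (0.12), Ndufv1, which binds NADH and the flavin (0.07), Ndufs4, whose loss in patients causes Leigh syndrome (0.10), Ndufv3 (0.11), Ndufa2 (0.10) and Ndufa7 (0.13). Ndufa7 rested on control 5, which read 7.57 against 8.49 to 8.78 in the other controls, and its difference was -0.08 without that mouse. Ndufa2 likewise stood at -0.05 without control 5.

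In the Q module 5 genes were measured, and their differences ran from 0.02 to 0.14. Ndufs3 (0.14, SE 0.10), a core subunit needed early in assembly, read 7.92 to 8.16 in controls and 8.22 to 8.25 in 4 carnitine mice, while carnitine 5 was at 7.78, the lowest of all mice. Ndufs7, which carries the last iron-sulphur cluster before ubiquinone, differed by 0.02 (SE 0.078) and varied little, with a highest mouse 1.24-fold above the lowest. Ndufs8, which carries the clusters next to it, differed by 0.06, Ndufa5 by 0.08 and Ndufa9, related to short-chain dehydrogenases, by 0.12. The signs of Ndufs7, Ndufs8 and Ndufa5 turned without control 5 and after cyclic loess.

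In the ND1 module all 4 measured genes had a positive difference (median 0.12). Ndufa13, also known as GRIM-19, read 10.33, 10.03, 10.11, 10.23 and 9.71 in controls and 10.32, 10.28, 10.34, 10.42 and 9.99 in carnitine mice. Carnitine 1 to 4 lay above controls 2 to 5, carnitine 3 and 4 also above control 1, and carnitine 5 lay below 4 controls. The difference was 0.19 (SE 0.12, adjusted p = 0.72 in limma).

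Ndufa1, a small membrane subunit encoded on the X chromosome, read 9.80, 9.08, 9.29, 9.32 and 8.61 in controls and 9.49, 9.17, 9.49, 9.57 and 8.97 in carnitine mice (difference 0.12, SE 0.18). Its values spread more than 2-fold over mice (2.28-fold), and the difference was -0.03 without control 5. Ndufa3 read 11.57, 11.28, 11.37, 11.50 and 11.03 in controls and 11.57, 11.50, 11.55, 11.69 and 11.07 in carnitine mice (difference 0.13, SE 0.12). Its 5th mice of both groups were the lowest. Ndufa8, a subunit with twin cysteine motifs on the side of the intermembrane space, differed by 0.12, and its dimmer probe set by 0.32.

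In the ND2 module 5 genes differed by 0.06 to 0.11. Ndufc1, a small membrane subunit, read 9.24, 9.22, 9.09, 9.27 and 9.01 in controls and 9.30, 9.25, 9.31, 9.30 and 9.22 in carnitine mice (difference 0.11, SE 0.078). The carnitine mice lay within 0.09 of each other. Ndufa11 read 10.26, 9.79, 9.82, 10.10 and 9.38 in controls and 10.02, 9.97, 10.22, 10.16 and 9.5 in carnitine mice. Its groups overlapped over nearly their whole range (difference 0.10, SE 0.16), and the sign turned without control 5 and after cyclic loess. The dimmer second probe set of Ndufa11 (mean 6.41) gave a difference of 0.18. With group means removed, that probe set correlated with the brighter one at r = 0.67 over mice. Ndufc2 (0.07) and Ndufa10 (0.06) were close to 0.

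Ndufs5, a subunit with twin cysteine motifs, read 5.87, 5.88, 5.73, 5.97 and 6.00 in controls and 6.03, 5.92, 5.73, 6.05 and 6.02 in carnitine mice (difference 0.06, SE 0.093). Its highest values included control 5 and carnitine 5, the low mice of the other members. This probe set is dim, where RMA values carry little signal, and a further probe set shared by Ndufs5 and its pseudogene was not used, so the part of weak signal in this pattern was not tested.

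In the ND4 module 4 genes were measured, all positive (median 0.17). Ndufb11, encoded on the X chromosome, had the largest difference of all members. It read 7.45, 6.93, 7.34, 6.61 and 6.17 in controls and 7.51, 7.29, 7.21, 7.16 and 7.10 in carnitine mice. Controls 1 and 3 lay above carnitine 2 to 5, and controls 2, 4 and 5 lay below all of them. The difference was 0.35 (SE 0.20, adjusted p = 0.72 in limma), and 0.17 without control 5.

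Ndufb5 differed by 0.18 (SE 0.14), Ndufb10 by 0.15 (SE 0.14) and Ndufb6 by 0.12 (SE 0.11), all membrane-arm accessory subunits. In Ndufb5 and Ndufb6 carnitine 5 was far below the other carnitine mice, at 9.47 against 10.03 to 10.15 and at 8.96 against 9.37 to 9.53.

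In the ND5 module 4 genes differed by 0.03 to 0.16. Ndufb3 read 8.61, 8.05, 8.04, 8.47 and 7.72 in controls and 8.38, 8.16, 8.62, 8.53 and 8.0 in carnitine mice (difference 0.16, SE 0.16). Low and high mice occurred in both groups. Ndufb9, a LYR protein like Ndufa6, read 12.67, 12.68, 12.48, 12.71 and 12.58 in controls and 12.68, 12.68, 12.82, 12.80 and 12.50 in carnitine mice (difference 0.07, SE 0.080). Its lowest mouse was control 3 rather than control 5. Ndufb8 differed by 0.07 and Ndufb7 by 0.03.

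Outside these modules, Ndufab1, the mitochondrial acyl carrier protein, had the only negative difference (-0.02, SE 0.11). It read 8.49, 8.28, 8.0, 8.22 and 8.07 in controls and 8.21, 8.21, 8.39, 8.24 and 7.90 in carnitine mice, and its difference was positive with median centring (0.03), without control 1 (0.05) and without carnitine 5 (0.05). Ndufa4, listed with complex I but now counted as a subunit of complex IV, differed by 0.01 (SE 0.096) and was negative with cyclic loess.

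**Figure D3:**
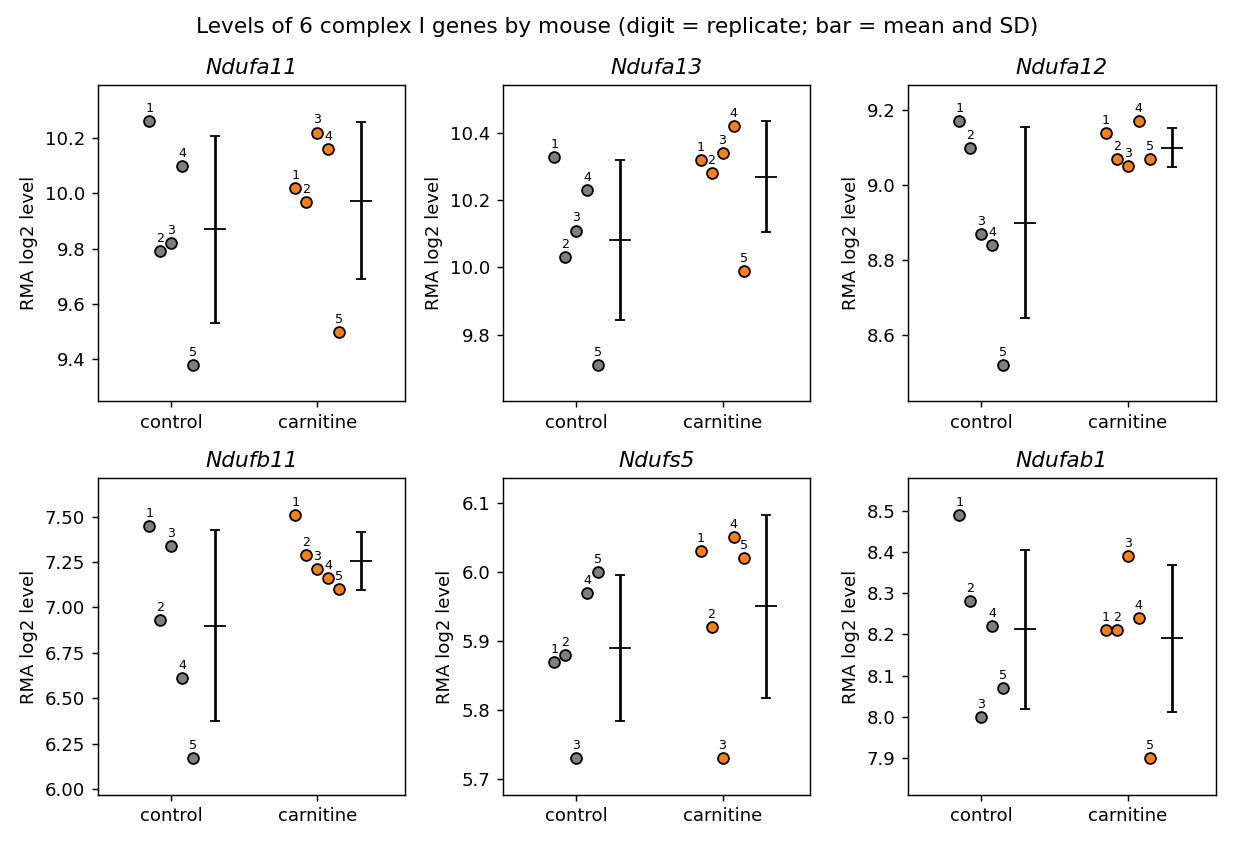
RMA log2 level (vertical axis, a separate range for each gene) of 6 complex I genes in each mouse by diet, with replicate numbers at the points and the mean and SD of 5 mice beside them. In Ndufa12 the carnitine mice lie between 9.05 and 9.17 while the controls run from 8.52 to 9.17, and in Ndufs5 neither mouse 5 is low.

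Covariation over mice was the clearest pattern of these genes. With each group's mean subtracted, so that the diet difference played no part, the median Pearson correlation over the 528 pairs of members was 0.78 over the 10 mice, and 86.6% of pairs were above 0.5. A single component held 74.9% of the variance of the standardised values, and the next held 9.19%. Control 5 was the lowest control in 23 of 33 members, carnitine 5 the lowest carnitine mouse in 30, and control 1 the highest control in 28. The median was 0.76 without control 5, 0.73 after cyclic loess and 0.54 with a block for the replicate number. All members of a mouse were read from the same array, so the points are not independent, and no p is attached.

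**Figure D4:**
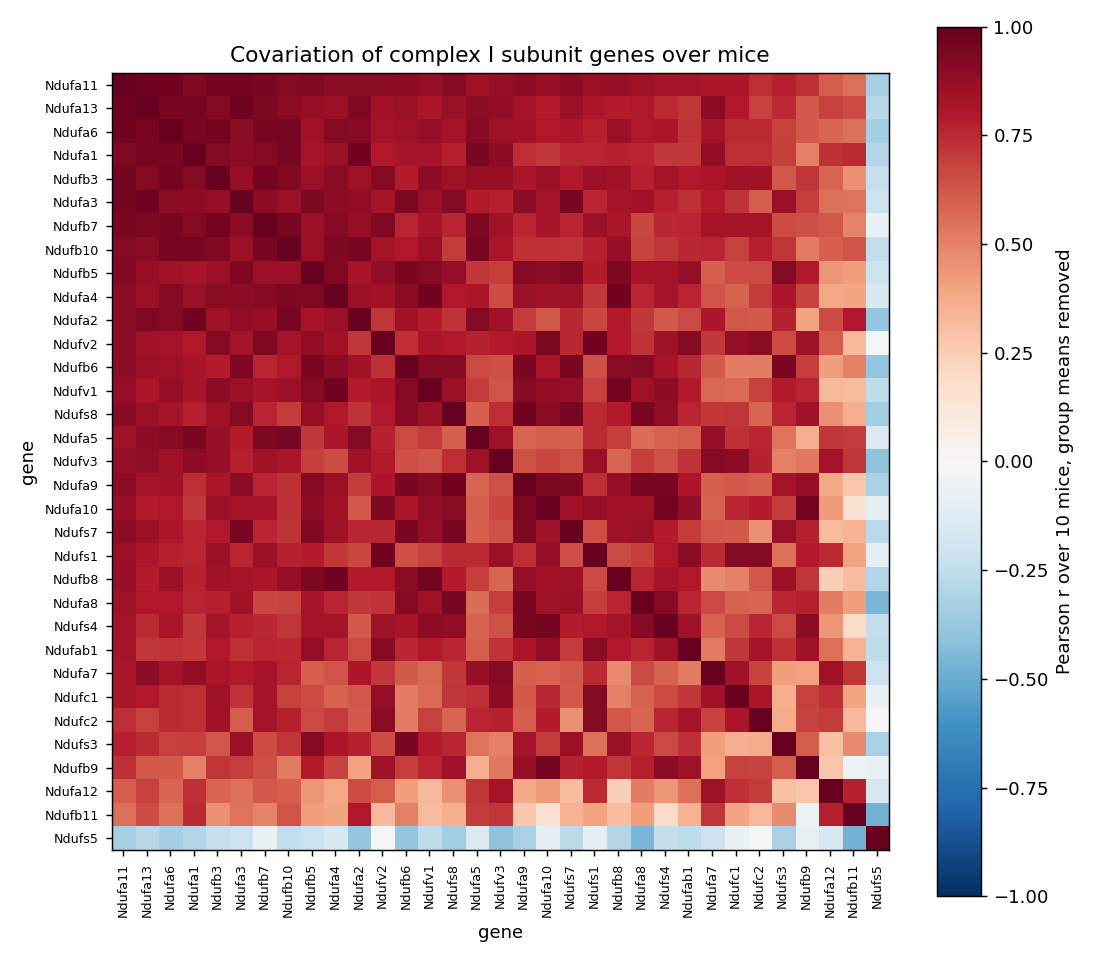
Pearson correlation over 10 mice, group means removed, for each pair of the 33 measured complex I genes, ordered on both axes by each gene's correlation with the mean of the other members. Nearly the whole field is red, up to 0.97 for Ndufa11 with Ndufa13, and the row of Ndufs5 is blue, down to -0.47 with Ndufb11.

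The members that followed the mean of the others most closely were Ndufa11 (r = 0.99, Spearman's rho 0.96), Ndufa13 (0.97, rho 0.98), Ndufa6 (0.96, rho 0.92), Ndufa1 (0.96, rho 0.94), Ndufb3 (0.95, rho 0.90) and Ndufa3 (0.95, rho 0.95). They lie in the N, ND1, ND2 and ND5 modules, so the tightest members did not fall in a single module. Of 33 members, 26 were above 0.8 and 12 above 0.9. Without control 5, 25 were above 0.8, and after cyclic loess 22 were.

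The loosest members were Ndufs5 (r = -0.29, rho -0.19), Ndufb11 (0.55, rho 0.35), Ndufa12 (0.65, rho 0.39) and Ndufb9 (0.69, rho 0.70). Ndufb11 and Ndufa12, which had the smallest p for diet, were at 0.22 and 0.36 without control 5, while Ndufb9 rose to 0.77. With all mice kept, Ndufb11 and Ndufa12 correlated with each other at 0.77. Control 5 was the lowest mouse for both (6.17 in Ndufb11 and 8.52 in Ndufa12), and how far this value rests on that mouse was not tested. Pairs that share a site in the complex were not always the closest: Ndufs1 with Ndufv2 reached 0.96 and Ndufv1 with Ndufv2 0.82, while Ndufs1 with Ndufv1 stood at 0.68.

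Module levels followed the members outside each module, with r of 0.97 for N, 0.96 for Q, 0.98 for ND1, 0.92 for ND2, 0.91 for ND4 and 0.95 for ND5 (rho 0.81 to 0.99, n = 10 mice). With the 2 mice farthest from the median left out, r ran from 0.80 (ND4) to 0.98 (Q).

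Among 11058 genes outside the list with a mean above the median gene, the 10 that followed the complex I level most closely were Cox5a (r = 0.99), Cyc1 (0.98), Smim4 (0.98), S100a1 (0.98), Coq3 (0.98), Uqcrh (0.98), Cox6b1 (0.98), Cox7a1 (0.97), Atp5mpl (0.97) and Nudt7 (0.97). Cox5a, Cox6b1 and Cox7a1 encode subunits of complex IV, Cyc1 and Uqcrh of complex III, Atp5mpl a small protein of ATP synthase, and Coq3 an enzyme of ubiquinone synthesis. S100a1 encodes a calcium-binding protein of striated muscle and Nudt7 a coenzyme A hydrolase of peroxisomes. Without the 2 mice farthest from the median these correlations stayed between 0.92 and 0.98. The median r of all 11058 genes was 0.14, and 5.64% were above 0.8.

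The 36 measured nuclear genes for subunits of complexes II to V gave a level of 10.24, 9.91, 9.90, 10.10 and 9.68 in control replicates 1 to 5 and 10.09, 10.02, 10.21, 10.20 and 9.74 in carnitine replicates 1 to 5. This level correlated with the complex I level at r = 0.99 (rho 0.96, and 0.98 without the 2 farthest mice), so the order of mice was nearly shared. Of these genes 29 had a positive and 7 a negative difference (median 0.10), 0 were higher and 1 was lower with an unadjusted p below 0.05 (against 3.14% and 3.83% of all genes), and 0 passed the adjusted threshold in limma. The lower gene, the dim ATP synthase gene Atp5j2, differed by -0.30 (SE 0.12). Cox7b differed by 0.30, Uqcrq by 0.36 and Sdha, the catalytic subunit of complex II, by -0.17, none with an unadjusted p below 0.05. After cyclic loess 20 of the 36 differences were positive (median 0.008), and without control 5 22 were (median 0.04). Without carnitine 5, 6 of the 36 were higher at that p, against 5.83% of all genes in either direction. None of the 36 was lower at that p with either of these mice left out.

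Genes for assembly factors, which join complex I subunits and are no part of the finished complex, had 18 positive differences among 19 measured (median 0.08), and 10 after cyclic loess (median 0.006). With an unadjusted p below 0.05, 4 were higher and 0 lower, against 3.14% and 3.83% of all genes, and 0 passed after adjustment in limma. Tmem126a read 9.25, 9.40, 9.12, 9.09 and 8.82 in controls and 9.54, 9.47, 9.57, 9.65 and 9.32 in carnitine mice, with only control 2 above the lowest carnitine mouse. Its difference was 0.37 (SE 0.11, adjusted p = 0.71 in limma). The others were Ndufaf5 (0.34, SE 0.12), Ndufaf6 (0.28, SE 0.12) and Tmem126b (0.26, SE 0.12). Control 5 was the lowest mouse for all 4. Without it 2 of 19 were higher at that p, against 5.55% of all genes in either direction, with 13 positive (median 0.02).

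The level of the 19 assembly factors followed the complex I level less tightly over mice in these data (r = 0.78, rho 0.59), and without the 2 farthest mice r was 0.50. The difference between this r and those of the modules was not tested. Ndufa4l2, a relative of Ndufa4 known from low oxygen, differed by -0.13 (SE 0.11).

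Of 10 regulators of mitochondrial genes, 7 had a positive difference (median 0.06) and 0 had an unadjusted p below 0.05 (against 6.97%). After cyclic loess 4 of 10 were positive (median -0.01), and without control 5 also 4 of 10 (median -0.03). The smallest p were those of the PGC-1 relative Pprc1 (0.14, SE 0.11), the NRF1 gene Nrf1 (0.11, SE 0.085), Yy1 (0.10, SE 0.082) and Esrrg (-0.13, SE 0.14). Over mice Esrrg, an oestrogen-related receptor of oxidative muscle, followed the complex I level at 0.90 and the coactivator gene Ppargc1b at 0.82. Nrf1 followed it at 0.63 and the related coactivator gene Ppargc1a at 0.30. The rest of the list stood at 0.43 (Yy1), 0.36 (Gabpa), 0.22 (Tfam), 0.20 (Pprc1), 0.08 (Esrra, also an oestrogen-related receptor) and 3.7e-05 (Gabpb1). The mean of the 10 regulators followed the complex I level at 0.71 (rho 0.43), at 0.47 without control 5 and at 0.33 without the 2 farthest mice. The correlations of single regulators use all 10 mice and were not repeated with mice left out. Nrf1 read 6.83 in control 5 against 7.04 to 7.15 in the other controls, so how far its 0.63 rests on that mouse was not tested.

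Slow-fibre genes followed the complex I level within groups, while their mean differed between the diets in the other direction. The mean of 10 slow-fibre genes was 9.76, 8.94, 9.29, 9.49 and 8.95 in control replicates 1 to 5 and 8.37, 7.61, 9.29, 9.57 and 7.04 in carnitine replicates 1 to 5. With group means removed it correlated with the complex I level at r = 0.77 (rho 0.82, and 0.70 without the 2 farthest mice). Carnitine 1 and 2 lay below every control in slow-fibre level, while their complex I levels of 9.79 and 9.73 lay above 4 and 3 of the 5 controls. The mean slow-fibre difference between diets was -0.91 and that of complex I 0.11. Of the 10 slow-fibre genes 7 were lower with an unadjusted p below 0.05, against 3.83% of all genes, and 0 after adjustment in limma.

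The mean of the 7 measured adipocyte genes of 8 listed was lower where complex I was higher. It was 6.26, 6.86, 6.79, 6.56 and 6.84 in controls and 6.54, 6.43, 6.57, 6.32 and 6.67 in carnitine mice, with r = -0.80 (rho -0.88, and -0.85 without the 2 farthest mice). Single genes ran from -0.82 (Lep) to 0.44 (Fabp4, a fatty acid-binding protein also made by endothelial cells). The defining genes Adipoq (4.92 to 5.89) and Lep (5.08 to 6.15) lay below the median gene level of 6.14 in every mouse except Lep in control 5. The interquartile range of the arrays correlated with the complex I level at 0.54, and at 0.03 without control 5. The fast-fibre level correlated at 0.79 (0.42 without the 2 farthest mice), but its genes went both ways, from 0.76 for the myosin gene Myh2 and 0.72 for Myh1 to -0.72 for the calcium pump gene Atp2a1 and -0.77 for Actn3. The same values were, for the endothelial level, 0.73 (0.13), for the macrophage level -0.30 (-0.28), for the T cell level -0.46 (0.20), for the fibroblast level -0.15 (-0.42), for the neutrophil level 0.14 (0.35) and for the cardiac level 0.53 (0.71). The part of these cell types, and of array quality, in the complex I level was not tested, and fewer cells of a type cannot be told apart from less RNA per cell in whole muscle.

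**Figure D5:**
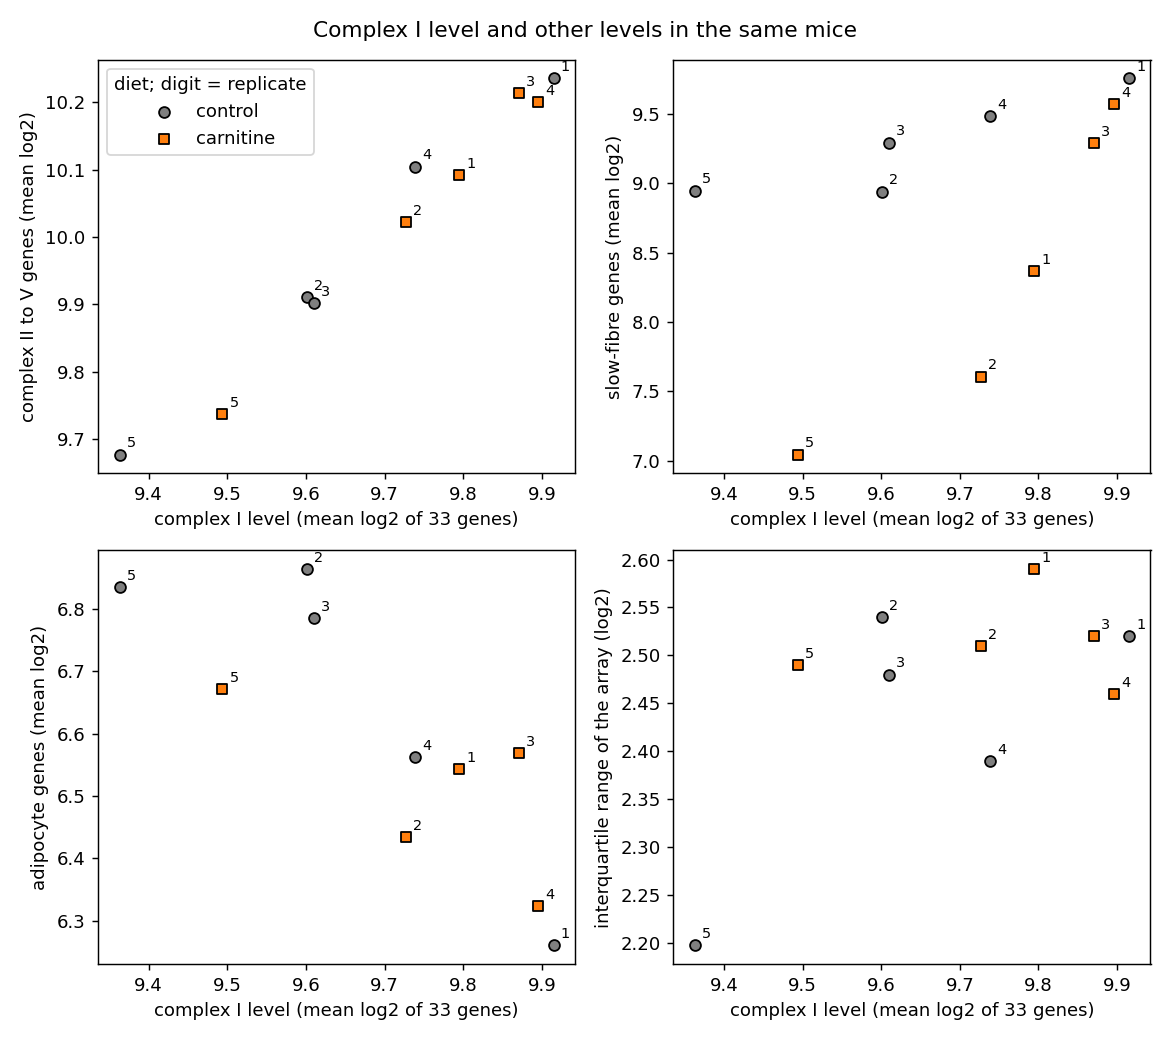
Complex I level of each mouse (horizontal axis, mean log2 of 33 genes) against the level of complex II to V genes, slow-fibre genes, adipocyte genes and the interquartile range of the array (vertical axes, log2), with control mice as circles and carnitine mice as squares. The complex II to V points lie along a single line for both diets, while carnitine 1, 2 and 5 lie below all controls in slow-fibre level.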

How the data were processed

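Expression was measured in 10 gastrocnemius samples, 5 per diet, on Affymetrix Mouse Gene 2.0 ST arrays. Per the submitters' processing notes the authors made the deposited log2 values with RMA in Affymetrix Expression Console (no version or genome build is given in the sources used here). Since RMA aligns the arrays, a difference in total RNA cannot be seen. Of 34390 probe sets, 23521 have 1 gene symbol in the platform annotation, 1814 have several and 9055 are not listed there.

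The brightest single-symbol probe set of each gene was kept, and carnitine was compared with control for 22180 genes with limma 3.58.1 in R 4.3.3 (lmFit, eBayes with trend, Benjamini-Hochberg over all genes, threshold 0.05, no filter, no covariates). The fit was tested on simulated data. The number of arrays limits precision. Correlations use values with group means removed and carry no p.

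The members, lists and tests were chosen with earlier results of these data known. Values by mouse are given for members with the 6 smallest p, the 3 largest differences per direction, and the 6 highest and 4 lowest correlations with the others. From other lists up to 4 genes with the smallest p are named. Ndufs7, Ndufs3, Ndufa7, Ndufb5, Ndufb6 and Nrf1 have single values added after these were seen. Acta1 and the single adipocyte, fast-fibre and PGC-1 genes named with a correlation were also chosen after their values were seen. Alternatives were the omission of each array, cyclic loess, median centring, array weights, the mean of probe sets, a replicate block, only genes above the median, and eBayes without trend or robust.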

Additional observations from a re-analysis of the deposited data

Results flagged for a closer look

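In 80 groups of 5 mice (33 genes, the complex I level and 6 module levels in each diet), the lowest or highest mouse was checked for a gap above 0.71 of the group's range, a limit that chance passes in about 1 of 20 groups. It was passed in 5 groups, where 80 independent groups would give 4 by chance. The groups are not independent, since members covary over mice and the levels are means of the same genes. The count therefore cannot show whether these values go beyond chance. Ndufa7 in control replicate 5 read 7.57, with the next control at 8.49. Carnitine replicate 5 read 9.47 in Ndufb5 (next 10.03), 8.96 in Ndufb6 (next 9.37) and 7.78 in Ndufs3 (next 8.22), and 8.43 in the ND4 module level (next 8.78), which holds Ndufb5 and Ndufb6.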

How the results depend on the processing

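Under all 18 alternatives, which include the omission of each array, 0 of the complex I genes passed the adjusted threshold in limma, with a smallest adjusted p of 0.43 (without control replicate 2). The median difference and the difference in the complex I level stayed positive, from 0.02 after cyclic loess to 0.18 without control replicate 1, and the omission of single arrays gave 0.05 to 0.18 and 0.04 to 0.18. The median pairwise correlation was 0.75 to 0.83 when single arrays were left out and 0.54 with the replicate block. Positive differences numbered 19 after cyclic loess and 23 to 33 with an array left out. Unadjusted p below 0.05 was found in 2 of 33 genes with the replicate block (Ndufa13 and Ndufb11), against 8.12% of all genes. With an array left out it was found in 0 to 7 of 33. These were 3 without control replicate 1 (8.15% of all genes), and 1 without control replicate 2 (11.5%) or 3 (8.53%). Without carnitine replicate 5 they were 7 (5.83% of all genes). Groups did not overlap in 1 gene with the block and in 0 to 1 with an array left out. The share over all genes was not counted for overlap in these settings. The labels give no pairing by replicate number. Over all genes, deviations of same-numbered mice correlated at 0.236, 0.0123, -0.132, 0.230 and 0.105, and 2 of 5 control mice correlated best with their own number. These values cannot settle whether same-numbered mice belong together, which was not tested. Chosen after seeing the data, the counts of assembly factors with an unadjusted p below 0.05 in limma were 3 with cyclic loess (5.77% of all genes). They were 2 without control replicate 5 (5.55%) and 2 without carnitine replicate 5 (5.83%), against 4 with all arrays (6.97%).

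Signs turned with cyclic loess in Ndufa2 (-0.0034), Ndufa4 (-0.073), Ndufa5 (-0.0167), Ndufa10 (-0.0291), Ndufa11 (-0.00051), Ndufb7 (-0.0648), Ndufb8 (-0.0301), Ndufb9 (-0.0060), Ndufc2 (-0.0349), Ndufs4 (-0.0031), Ndufs7 (-0.0734), Ndufs8 (-0.0383), Ndufv1 (-0.0343), with array weights in Ndufa4 (-0.0018), Ndufa5 (-0.0106), Ndufa7 (-0.0213), Ndufb7 (-0.0261), and with median centring in Ndufab1 (0.028). With single arrays left out the range crossed 0 in Ndufa1 (-0.0345 to 0.263), Ndufa11 (-0.0185 to 0.223), Ndufa2 (-0.0505 to 0.257), Ndufa4 (-0.0265 to 0.0735), Ndufa5 (-0.0365 to 0.203), Ndufa7 (-0.0775 to 0.225), Ndufab1 (-0.075 to 0.0505), Ndufb7 (-0.053 to 0.127), Ndufs7 (-0.006 to 0.0715), Ndufs8 (-0.0125 to 0.181). The other 17 members kept their sign in every setting run. The cause was not tested. Dim signal limits Ndufs5.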
